A study of Homo sapiens with 6 samples.

Results

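The 8 genes described here are the ID family, ID1 to ID4, and the BMP and TGF-beta feedback inhibitors SMAD6, SMAD7, BAMBI and SKIL. They were taken by name from the 58302 genes listed in each library, and all 8 were among the 14462 tested genes, those whose mean over the 6 libraries reached 1 FPKM (fragments per kilobase of exon, scaled to the mapped fragments of each library). The study silenced Prp19, a splicing factor encoded by PRPF19, in the human neuroblastoma cell line SK-N-BE(2) and compared 3 libraries of siPrp19-transfected cells with 3 libraries of cells transfected with the negative control siRNA, called NC. The labels give 72 h of transfection, while the study's methods give a shorter time for its RNA sequencing, and both groups were the same unmodified line in the same medium. The study used the first of its Prp19 siRNAs for its later assays, so the knockdown may rest on 1 siRNA, and 1 cell line stands for the disease. Each library carries a replicate number, 1, 2 or 3, shared by 1 NC and 1 siPrp19 library, and the labels do not say whether the number stands for a culture, a day or a preparation.

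BMP and TGF-beta ligands bind pairs of serine/threonine kinase receptors, which phosphorylate receptor SMADs that enter the nucleus with SMAD4 and turn on target genes. The ID genes are among the best known direct targets of BMP signaling, and ID proteins lack a DNA-binding region, so they hold the E proteins TCF3, TCF4 and TCF12 away from partners such as HAND2 that drive neuronal differentiation of sympathoadrenal cells. SMAD6, SMAD7, BAMBI and SKIL are also induced by the pathway and act back on it as inhibitors.

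The start of 4 of the genes is shown because ID1 and ID2 had their highest levels in replicate 2 and ID3 and SMAD6 theirs in replicate 3, as described further on. Each sequence is the 250 bases before the RefSeq start of the gene on GRCh38.p14, written 5′ to 3′ on the strand of the gene, and the capitals mark GTCT or its reverse complement AGAC, the short element that SMAD proteins bind. The windows lie at chr20:31605039-31605288 (plus strand) for ID1, chr2:8681806-8682055 (plus strand) for ID2, chr1:23559502-23559751 (minus strand) for ID3 and chr15:66701986-66702235 (plus strand) for SMAD6.
ID1: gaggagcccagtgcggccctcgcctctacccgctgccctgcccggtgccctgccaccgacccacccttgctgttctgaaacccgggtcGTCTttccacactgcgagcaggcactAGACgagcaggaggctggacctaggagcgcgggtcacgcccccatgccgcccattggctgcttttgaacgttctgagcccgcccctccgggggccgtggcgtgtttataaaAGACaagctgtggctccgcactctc
ID2: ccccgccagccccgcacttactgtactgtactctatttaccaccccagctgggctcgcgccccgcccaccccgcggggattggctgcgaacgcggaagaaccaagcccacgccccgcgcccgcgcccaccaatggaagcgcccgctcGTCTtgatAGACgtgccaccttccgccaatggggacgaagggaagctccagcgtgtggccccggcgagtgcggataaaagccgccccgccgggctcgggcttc
ID3: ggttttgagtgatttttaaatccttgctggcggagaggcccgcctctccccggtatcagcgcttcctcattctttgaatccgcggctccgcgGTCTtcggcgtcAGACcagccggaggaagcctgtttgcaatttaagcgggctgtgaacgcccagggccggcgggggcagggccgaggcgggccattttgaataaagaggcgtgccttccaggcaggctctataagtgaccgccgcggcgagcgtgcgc
SMAD6: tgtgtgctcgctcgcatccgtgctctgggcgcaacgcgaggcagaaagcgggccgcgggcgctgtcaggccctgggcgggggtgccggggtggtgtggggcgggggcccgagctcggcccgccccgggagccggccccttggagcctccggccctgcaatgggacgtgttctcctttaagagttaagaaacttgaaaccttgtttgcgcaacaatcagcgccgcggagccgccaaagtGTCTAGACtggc

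GTCT or AGAC stood in the windows of 8 of the 8 genes, and also in 77.5% of all 35116 promoter windows searched on both strands. The joined palindrome GTCTAGAC, which contains both of the short forms, was found in 0.182% of windows, and among the 8 genes only in that of SMAD6, starting 12 bases before the gene start. The GC-rich element GGCGCC was in 16.4% of windows, among them those of BAMBI, with 3 copies, and SKIL, with 1 copy. The cyclic AMP element TGACGTCA was in 1.65% of windows and, of the 8, only in that of SKIL, starting 54 bases before the start. The E-box CACGTG was in 6.34% of windows and in 0 of the 8. These are matches of letters only, and the files hold no measurement of factor binding.

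The depth, in reads on genes recovered from the deposited values, ranged from 19058784 to 24181791 per library. PRPF19 itself was lower in siPrp19 libraries, at 21.8, 28.5 and 33.6 FPKM in replicates 1, 2 and 3, than in NC libraries, at 53.1, 53.1 and 64.9 FPKM, and the groups did not overlap. Its mean with siPrp19 was 49.0% of that with NC (log2 fold change -1.04, SE 0.19, limma adjusted p = 0.9999 without a term for the replicate number and 0.190 with it). It passed with the replicate term in limma-voom on recovered reads (adjusted p = 1.38e-11) and with the replicate term among genes averaging 5 FPKM or more (limma adjusted p = 0.0176). The sympathoadrenal markers chosen for the cell line were present, 10 of 10 with a mean of 1 FPKM or more and summed levels of 2130 to 2263 FPKM with NC and 2010 to 2606 FPKM with siPrp19. Of 8 mesenchymal markers 6 reached that level, with sums of 158 to 183 and 149 to 178 FPKM, and 2 of 6 Schwann cell markers did, with SOX10 at 0 in every library. No endothelial marker of 4 and no leukocyte marker of 3 reached 1 FPKM. Reads from mitochondrial genes made up 2.74% to 3.09% in replicates 1 and 2 and 5.06% and 5.39% in replicate 3 of NC and siPrp19, a difference that moved with the replicate number in both groups and whose part in the results was not tested.

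ID1 (ENSG00000125968, chr20:31605283-31606515, plus strand, GRCh38 with GENCODE 29), a direct BMP target and the most abundant member on average, was listed at 142, 194 and 98.1 FPKM in NC replicates 1, 2 and 3. With siPrp19 it was listed at 136, 190.0 and 118 FPKM in the same order. In both groups replicate 2 was highest and replicate 3 lowest, so the groups overlapped. The same-numbered differences, siPrp19 minus NC on the log2(FPKM + 0.1) scale, were -0.06, -0.03 and 0.27.

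ID2 (ENSG00000115738, chr2:8678845-8684453, plus strand), which in neuroblastoma has been studied beside MYCN, stood at 104, 187 and 89.1 FPKM with NC and at 78.8, 160.2 and 97.1 FPKM with siPrp19. Replicate 2 stood well above both others in each group, at a mean of 174 FPKM against 91.6 and 93.1 FPKM in replicates 1 and 3. Its differences within pairs were -0.40, -0.22 and 0.12 (log2). ID2 and the antisense gene ID2-AS1 share 38 exonic bases, and the library kit does not mark strand, so reads there cannot be told apart. ID2-AS1 had a mean of 1.09 FPKM against 119 FPKM for ID2.

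ID3 (ENSG00000117318, chr1:23557918-23559794, minus strand), induced by BMP together with ID1 in many cells, was at 73.3, 108 and 109.7 FPKM with NC and at 75.7, 109 and 145 FPKM with siPrp19. Replicate 1 was lowest in both groups, and the siPrp19 library of replicate 3 was above all others. Its pair differences were 0.05, 0.02 and 0.40 (log2), higher with siPrp19 each time. ID4 (ENSG00000172201, chr6:19837386-19840684, plus strand), the family member most tied to neural precursors, was far less abundant, at 2.70, 5.28 and 5.03 FPKM with NC and at 3.06, 5.31 and 4.20 FPKM with siPrp19. Replicate 1 was again lowest in both groups. Its pair differences were 0.18, 0.01 and -0.25 (log2).

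Summed over the family, the level was 322, 494 and 302 FPKM in NC replicates 1, 2 and 3 and 293, 465 and 364 FPKM with siPrp19. The order of the members followed the replicate number, with ID1 above ID2 above ID3 above ID4 in replicates 1 and 2 of both groups and ID3 above ID1 above ID2 above ID4 in replicate 3 of both. The ratio of ID3 to ID1, both per length, was 0.518 and 0.558 in NC replicates 1 and 2 and 0.557 and 0.575 in the siPrp19 libraries of those numbers, but 1.12 and 1.22 in replicate 3. Taken as group means with SD (n = 3), ID1 (144 ± 47.8 FPKM with NC and 148 ± 37.4 with siPrp19), ID2 (127 ± 52.7 and 112 ± 42.7) and ID3 (97.0 ± 20.5 and 109.9 ± 34.5) lay within each other's spread, while ID4 (4.34 ± 1.42 and 4.19 ± 1.13) lay below all of them in every library. By mean level ID1, ID2 and ID3 stood at percentiles 98.7, 98.3 and 98.0 of the tested genes and ID4 at 40.8.

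SMAD6 (ENSG00000137834, chr15:66702228-66782848, plus strand), an inhibitory SMAD directed mainly at BMP receptors, was at 12.0, 10.4 and 17.0 FPKM with NC and at 11.8, 9.52 and 19.7 FPKM with siPrp19. Replicate 3 was highest and replicate 2 lowest in each group, the reverse of ID1 at both ends. Its pair differences were -0.02, -0.13 and 0.22 (log2). SMAD7 (ENSG00000101665, chr18:48919853-48952052, minus strand), which blocks TGF-beta as well as BMP receptors, was at 14.1, 30.1 and 9.33 FPKM with NC and at 11.0, 25.2 and 10.9 FPKM with siPrp19. Replicate 2 stood above both others in each group. Its pair differences were -0.35, -0.26 and 0.23 (log2). The ratio of SMAD7 to SMAD6 was therefore 1.17, 2.89 and 0.550 with NC and 0.931, 2.65 and 0.554 with siPrp19, so that which inhibitory SMAD was the more abundant changed with the replicate number.

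BAMBI (ENSG00000095739, chr10:28677342-28682939, plus strand), a receptor-like protein without a kinase domain, was at 20.7, 27.0 and 25.7 FPKM with NC and at 19.3, 22.6 and 28.1 FPKM with siPrp19. Its levels lay closest together of the 8 genes, with replicate 1 lowest in both groups. Its pair differences were -0.10, -0.26 and 0.13 (log2). SKIL (ENSG00000136603, chr3:170357678-170396835, plus strand), which encodes the co-repressor SnoN that binds SMADs on DNA, was at 7.21, 10.6 and 7.48 FPKM with NC and at 5.01, 9.91 and 7.02 FPKM with siPrp19. Replicate 2 was highest in both groups. Its pair differences were -0.52, -0.09 and -0.09 (log2), lower with siPrp19 each time.

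**Figure D1:**
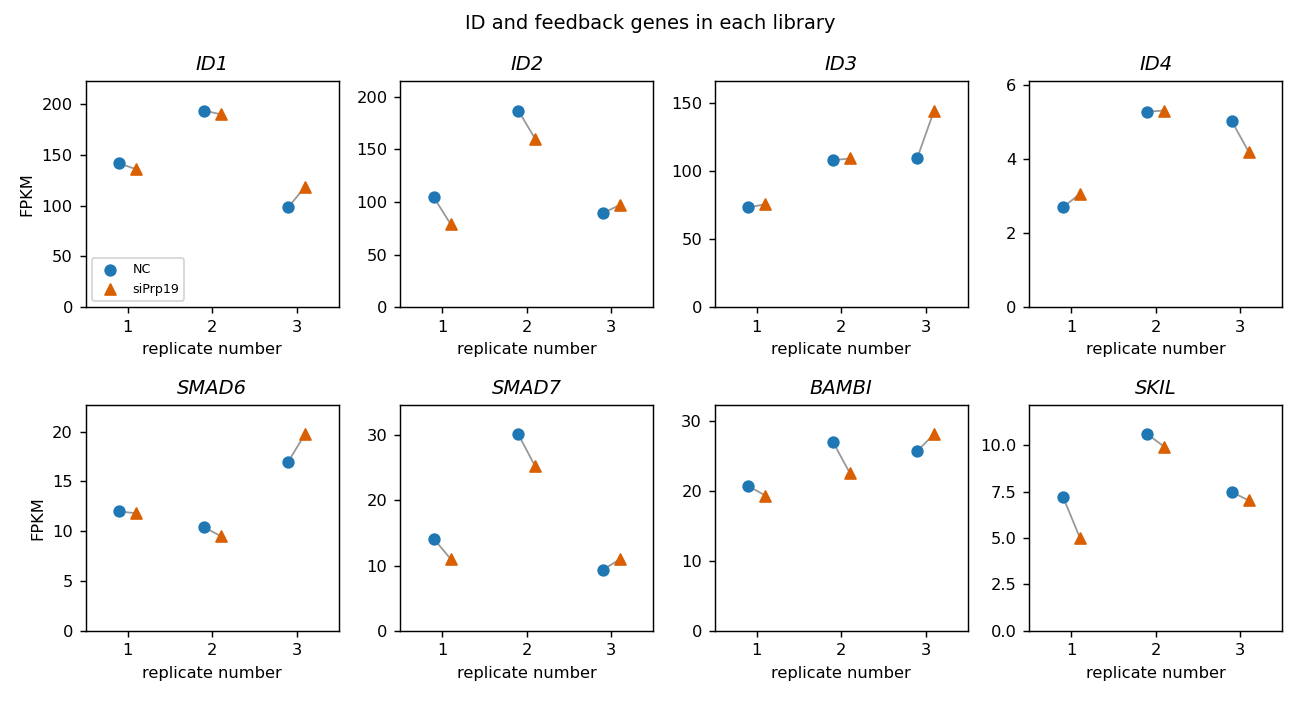
FPKM (y axis, from 0) of the 8 genes in each library by replicate number (x axis), with circles for NC, triangles for siPrp19 and a line joining the libraries that share a number. For ID1 the libraries of replicate 2 lie at 194 and 190.0 FPKM and the NC libraries run from 98.1 to 194 FPKM. For ID3 the NC library of replicate 3, at 109.7 FPKM, lies beside those of replicate 2, at 108 and 109 FPKM. The siPrp19 library of replicate 3 lies apart at 145 FPKM.

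Between the groups as a whole, siPrp19 and NC overlapped for 8 of the 8 genes, while 5.61% of all tested genes had groups that did not overlap. None of the 8 was called at an FDR under 0.05 by limma without a replicate term, where the share over all tested genes was 0%, and none had an unadjusted p under 0.05, where the share was 1.56% (225 genes). In exact two-sided permutation tests of 3 against 3, which cannot go below 0.10, the p-values of the 8 genes ran from 0.5 for ID3 and SKIL to 1 for ID1 and ID4. Without the replicate term the standard error of the log2 fold change was 0.18 for BAMBI, 0.28 for both ID3 and SKIL, 0.29 for ID1 and 0.50 for SMAD7. In bulk RNA a lower level of a transcript cannot be told apart from fewer cells that carry it.

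With the replicate number in the fit the estimated changes were the same and their standard errors were between 0.08 and 0.12. The log2 fold changes were 0.06 for ID1, -0.17 for ID2, 0.15 for ID3 and -0.02 for ID4. For the feedback genes they were 0.02 for SMAD6, -0.13 for SMAD7, -0.08 for BAMBI and -0.23 for SKIL. None of the 8 passed an FDR of 0.05 (share of all genes 0%) or an unadjusted p of 0.05 (share of all genes 15.7%), and the limma adjusted p-values ranged from 0.362 for SKIL to 0.932 for ID4. The 95% intervals of the fold change were 0.910 to 1.20 for ID1, 0.738 to 1.07 for ID2, 0.953 to 1.30 for ID3 and 0.820 to 1.18 for ID4. They were 0.879 to 1.17 for SMAD6, 0.734 to 1.14 for SMAD7, 0.818 to 1.10 for BAMBI and 0.706 to 1.02 for SKIL. Each interval includes no change, so this fit gave a direction for none of the 8, and any change inside an interval remains compatible with it. The median log2 fold change of the 8 was -0.05, against 0.00 (-0.0040) over all tested genes.

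A further fit used the recovered read counts. In limma-voom with the replicate term, 7.01% of 14432 genes passed an FDR of 0.05, and 0 of the 8 did. At an unadjusted p under 0.05, reached by 20.6% of the genes, 3 of the 8 were called. They were SKIL, with a log2 fold change of -0.22 (SE 0.07, limma-voom adjusted p = 0.0647), ID2, with -0.17 (SE 0.07, limma-voom adjusted p = 0.122), and ID3, with 0.16 (SE 0.06, limma-voom adjusted p = 0.127). In the limma fit on FPKM with the replicate term and a minimum mean of 5 FPKM, 1621 of 7913 genes had an unadjusted p under 0.05. Of the 7 genes tested there only SKIL was among them, with the same estimate as without that minimum (log2 fold change -0.23, limma adjusted p = 0.237). SMAD7's values were not whole numbers of reads with the exon length used, so its reads are not given. Its rounded values were still part of the voom fit (log2 fold change -0.15, SE 0.08, limma-voom adjusted p = 0.261) and are less certain there. For the other 7 genes the counting error of a pair difference was 0.02 to 0.17 (log2), largest for ID4 with 138 to 259 reads per library.

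The sign of the siPrp19 difference was not the same in all pairs for 6 of the 8 genes. SKIL was lower in 3 of 3 pairs, as were 21.3% of all tested genes, and ID3 was higher in 3 of 3, as were 19.2%. Another 5 of the 8 genes, ID1, ID2, SMAD6, SMAD7 and BAMBI, were lower in pairs 1 and 2 and higher in pair 3, a pattern that 13.0% of all tested genes showed and that was picked out after the values were seen. The median pair difference of the 8 genes was -0.08 in pair 1, -0.11 in pair 2 and 0.17 in pair 3 (log2), against -0.02, -0.00 (-0.0042) and 0.01 over all tested genes. Whether the siPrp19 effect differed between pairs could not be tested, since each pair has 1 library per group.

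**Figure D2:**
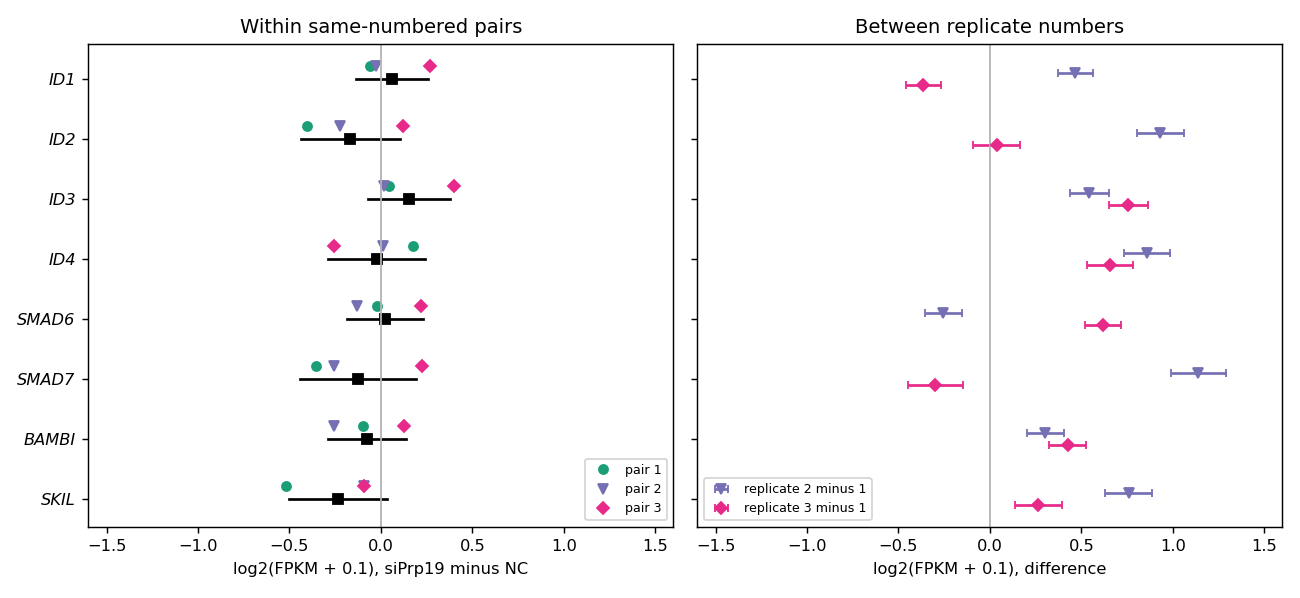
Left, siPrp19 minus NC on the log2(FPKM + 0.1) scale for each gene, with squares and lines for the limma estimate with the replicate term and its 95% interval and colored symbols for pairs 1, 2 and 3. Right, replicate 2 minus 1 and replicate 3 minus 1 on the same scale with their standard errors, where the estimate furthest from 0 is 1.14 for SMAD7, while no siPrp19 estimate on the left is further from 0 than -0.23.

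Differences between replicate numbers were larger. The F test of the replicate number in the same limma fit had 2 degrees of freedom, with treatment as the other term. It called 8 of the 8 genes at an FDR under 0.05, where 49.6% of all tested genes were called (7175 of 14462). Among genes averaging 5 FPKM or more, which leaves out ID4, 71% of all were called, and 7 of the 7 tested there. The adjusted p-values were 0.00526 for SMAD7, 0.00647 for SMAD6, 0.00670 for ID1, 0.00806 for ID2, 0.0104 for ID3, 0.0112 for ID4, 0.0174 for SKIL and 0.0450 for BAMBI. BAMBI lay nearest to the threshold and did not pass it without NC replicate 1, siPrp19 replicate 1 or siPrp19 replicate 3 (limma adjusted p = 0.144, 0.176 and 0.0532), nor with TPM (0.0679) or without the trend (0.0987). SKIL did not pass without siPrp19 replicate 2 (limma adjusted p = 0.0867), and with no filter on low values neither SKIL nor BAMBI passed.

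Replicate 2 differed from replicate 1 at an FDR under 0.05 for 19.9% of tested genes and for 6 of the 8, each of them higher in replicate 2. SMAD7 led with a log2 difference of 1.14 (SE 0.15), a 2.20-fold level, followed by ID2 with 0.93 (SE 0.13), ID4 with 0.86 (SE 0.13) and SKIL with 0.76 (SE 0.13). ID3 and ID1 were higher by 0.54 (SE 0.11) and 0.47 (SE 0.09). BAMBI, at 0.30, and SMAD6, at -0.25, did not pass in this contrast. Each of the 6 calls was lost without NC replicate 1, NC replicate 2, siPrp19 replicate 1 or siPrp19 replicate 2, where the limma adjusted p-values of the 6 ran from 0.0540 to 0.176. They were also lost with no filter on low values and with eBayes without trend and robust, and ID1 was lost with quantile normalization.

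Replicate 3 against replicate 1 called 29.7% of tested genes and 5 of the 8. ID3 was higher by 0.76 (SE 0.11), ID4 by 0.66 (SE 0.13), SMAD6 by 0.62 (SE 0.10) and BAMBI by 0.42 (SE 0.10), and ID1 was lower, at -0.36 (SE 0.09). Of these 5 calls, 1 was left without NC replicate 1 (ID3) and 1 without siPrp19 replicate 1 (ID4). Without NC replicate 3 there were 3 left, and 4 without any 1 of the other libraries. ID1 was the least stable, lost in 5 of the 6 cases, with limma adjusted p-values up to 0.201 when a library was left out. With no filter on low values 1 was left (ID3), and with eBayes without trend and robust 3 were left, ID1 and BAMBI being lost.

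Replicate 3 against replicate 2 called 47.4% of tested genes and 5 of the 8. SMAD7 was lower at -1.44 (SE 0.15), ID2 at -0.89 (SE 0.13), ID1 at -0.83 (SE 0.09) and SKIL at -0.49 (SE 0.13), and SMAD6 was higher at 0.87 (SE 0.10). SMAD7, ID2, ID1 and SMAD6 passed with each library left out. SKIL did not pass without NC replicate 2, NC replicate 3, siPrp19 replicate 2 or siPrp19 replicate 3 (limma adjusted p = 0.0621, 0.143, 0.153 and 0.0541), nor with no filter or with eBayes without trend and robust.

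The range between the highest and the lowest replicate mean was 1.44 for SMAD7, a 2.71-fold spread at percentile 94.1 of the tested genes, and 0.42 for BAMBI, at percentile 46.1 (log2). The other 6 lay between 0.76 and 0.93, and the median of the 8 was 0.85 against 0.46 over all tested genes. As a share of the total sum of squares over the 6 libraries, the replicate number took 80.6% to 96.1% for the 8 genes (median 92.6%), and the siPrp19 comparison took 0.0896% for SMAD6 to 11.1% for SKIL. Over all tested genes the medians were 80.9% and 5.68%. The replicate number has 2 degrees of freedom, more than the siPrp19 comparison, so its share is larger in part by design. PRPF19 showed the other arrangement, with 11.1% for the replicate number and 86.6% for siPrp19 against NC.

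**Figure D3:**
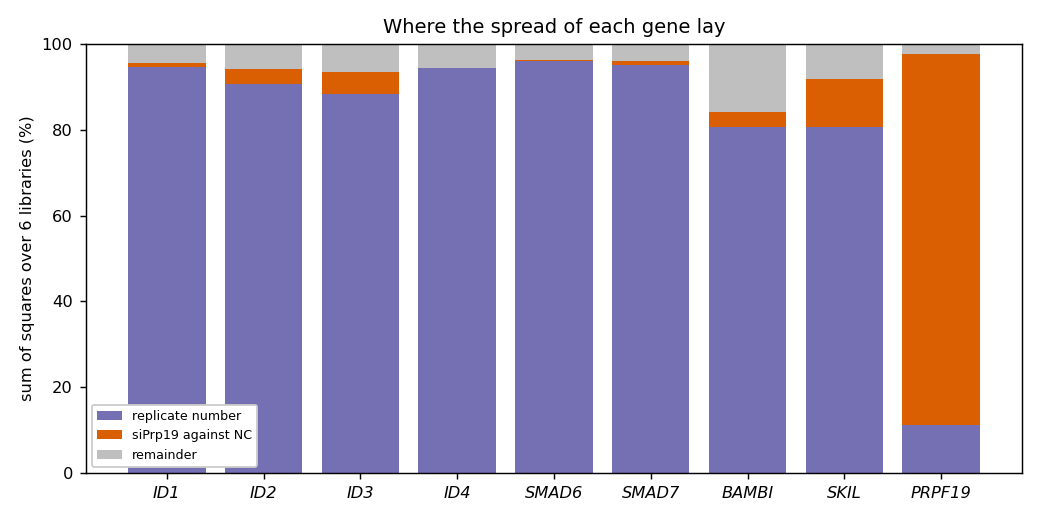
Share of the sum of squares of log2(FPKM + 0.1) over the 6 libraries (y axis, percent) that lay between replicate numbers, between siPrp19 and NC, and in the remainder, for the 8 genes and PRPF19. The replicate number, which has 2 degrees of freedom and so more than siPrp19 against NC, takes 80.6% or more for each of the 8 genes. It takes 11.1% for PRPF19.

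**Figure D4:**
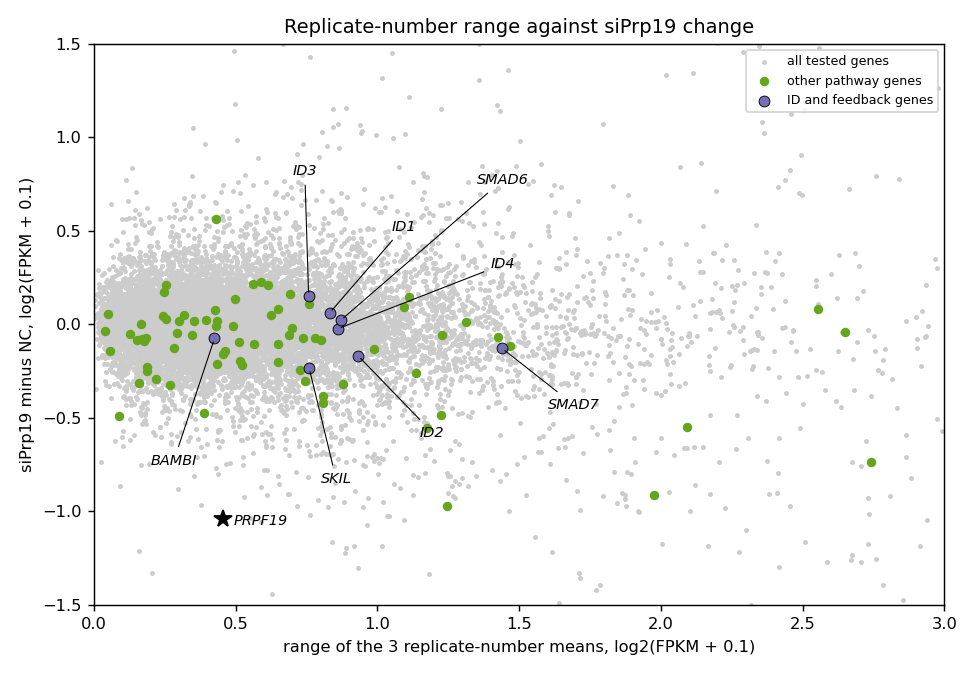
Range of the 3 replicate-number means (x axis) against siPrp19 minus NC (y axis), both on the log2(FPKM + 0.1) scale, for all tested genes in grey, the other pathway genes in green and the 8 genes in purple. Each of the 8 lies near 0 on the y axis with a range of 0.42 to 1.44, PRPF19 lies at -1.04 on the y axis, and 249 genes fall outside the axes, 1 of them a pathway gene (MYOD1).

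The replicate-number profile was not one shape. ID1 and SMAD7 ran in the order replicate 2, 1, 3 from highest to lowest, as did 26.2% of all tested genes. ID2, ID4 and SKIL ran 2, 3, 1 (12.2% of all), ID3 and BAMBI ran 3, 2, 1 (13.8%), and SMAD6 ran 3, 1, 2 (26.2%). These are orders of means, and only ID1 passed in all 3 contrasts between numbers. Replicate 3 minus 1 was 0.04 for ID2 (limma adjusted p = 0.851) and -0.30 for SMAD7 (0.197). Replicate 3 minus 2 was 0.21 for ID3 (0.158) and 0.12 for BAMBI (0.372). Within NC alone, ID2 ran 2, 1, 3 and BAMBI ran 2, 3, 1. Across the 6 libraries, which share these replicate numbers, the log2 levels of SMAD7 had a Pearson r of 0.97 with ID2 and 0.95 with ID1, those of BAMBI 0.90 with ID3, and those of SMAD6 -0.87 with ID1. ID1 and ID3 had an r of -0.11.

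Among the 7912 other genes whose mean reached 5 FPKM, those with the closest profile over the 6 libraries were RPTOR for SMAD7 (r = 0.998), ALKBH1 for ID1 (r = 0.997), FBXO38 for ID2 (r = 0.997), SESN2 for ID3 (r = 0.996), TMEM250 for SMAD6 (r = 0.999), UBE2S for BAMBI (r = 0.982) and TMEM242 for SKIL (r = 0.998). For ID4 it was DPY30 (r = 0.990, 7913 genes). The next were ATP6V1D and RPL35A for SMAD7, RPS25 and RETREG3 for ID1, CSNK1A1 and RHOB for ID2, POLR2E and FAM177A1 for ID3, NDOR1 and IPO13 for SMAD6, MANBAL for BAMBI, INCENP and RNF7 for SKIL, and UBB and STYX for ID4. Such values are easy to reach over 6 libraries in which 3 numbers dominate, since 487 genes had an r over 0.95 with ID1, 399 with SMAD7, 343 with SMAD6 and 230 with ID2, and fewer with SKIL (128), ID4 (40), ID3 (35) and BAMBI (22).

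The rest of the pathway was taken from 7 lists holding 108 different genes, of which 76 were tested. The replicate number was called for 47 of the 76 (61.8%), against 49.6% of all genes. By list these were 8 of 10 ligands, 6 of 12 receptors and co-receptors, 2 of 6 receptor SMADs and SMAD4, 3 of 7 extracellular inhibitors, 11 of 13 intracellular inhibitors and co-repressors, 13 of 18 other target genes and 4 of 10 bHLH partners of ID proteins. The median range between replicate means was 0.92 for the ligands, 0.73 for the intracellular inhibitors and 0.69 for the targets, and 0.18 for the SMADs (log2).

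Among the ligands, TGFB1, the main secreted TGF-beta of many cell types, was at 59.4, 97.5 and 15.1 FPKM with NC and at 60.9, 96.0 and 17.8 FPKM with siPrp19. Its level in replicate 2 was thus well above replicate 1 and its level in replicate 3 well below in both groups, a range of 2.56 (log2, limma adjusted p = 0.000516 for the replicate number). GDF15, a stress-induced member of the family, ran in the order replicate 3, 2, 1, at 1.56, 4.57 and 6.54 FPKM with NC and at 0.506, 2.60 and 6.66 FPKM with siPrp19. GDF6, a BMP-class ligand, was at 3.07, 4.01 and 1.67 FPKM with NC and at 3.45, 3.59 and 1.46 FPKM with siPrp19, and INHA, an inhibin subunit, had a range of 1.11. BMP6, a ligand that induces ID genes in many cells, had a range of 0.74 and was lower with siPrp19 in 3 of 3 pairs (log2 difference -0.30, limma adjusted p = 0.211 with the replicate term).

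Of 18 tested target genes 7 had the replicate order 2, 1, 3 of TGFB1, SMAD7 and ID1, against 26.2% of all tested genes. KLF10, an early-response transcription factor, was at 28.1, 67.2 and 9.89 FPKM with NC and at 22.3, 67.2 and 11.4 FPKM with siPrp19. JUNB, an AP-1 subunit, was at 109, 182 and 55.8 FPKM with NC and at 88.3, 153 and 64.9 FPKM with siPrp19. CCN2, a matrix protein gene also known as a YAP target, was among the 7 as well, with a range of 1.98. The other targets ran 2, 3, 1 (4 genes), 3, 2, 1 (3 genes), 3, 1, 2 (3 genes) or 1, 2, 3 (1 gene). PMEPA1, which traps receptor SMADs, had a range of 0.80 with replicate 2 highest, TOB1 (1.14) and TOB2 (0.81), anti-proliferative proteins that bind SMADs, had replicate 2 highest as well, and so did FSTL3 (1.31), a secreted activin inhibitor. FKBP1A, which guards the type I receptor, had the opposite order with replicate 3 highest and a range of 0.78. The ranges above passed the F test at an FDR under 0.05 for each of these genes.

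**Figure D5:**
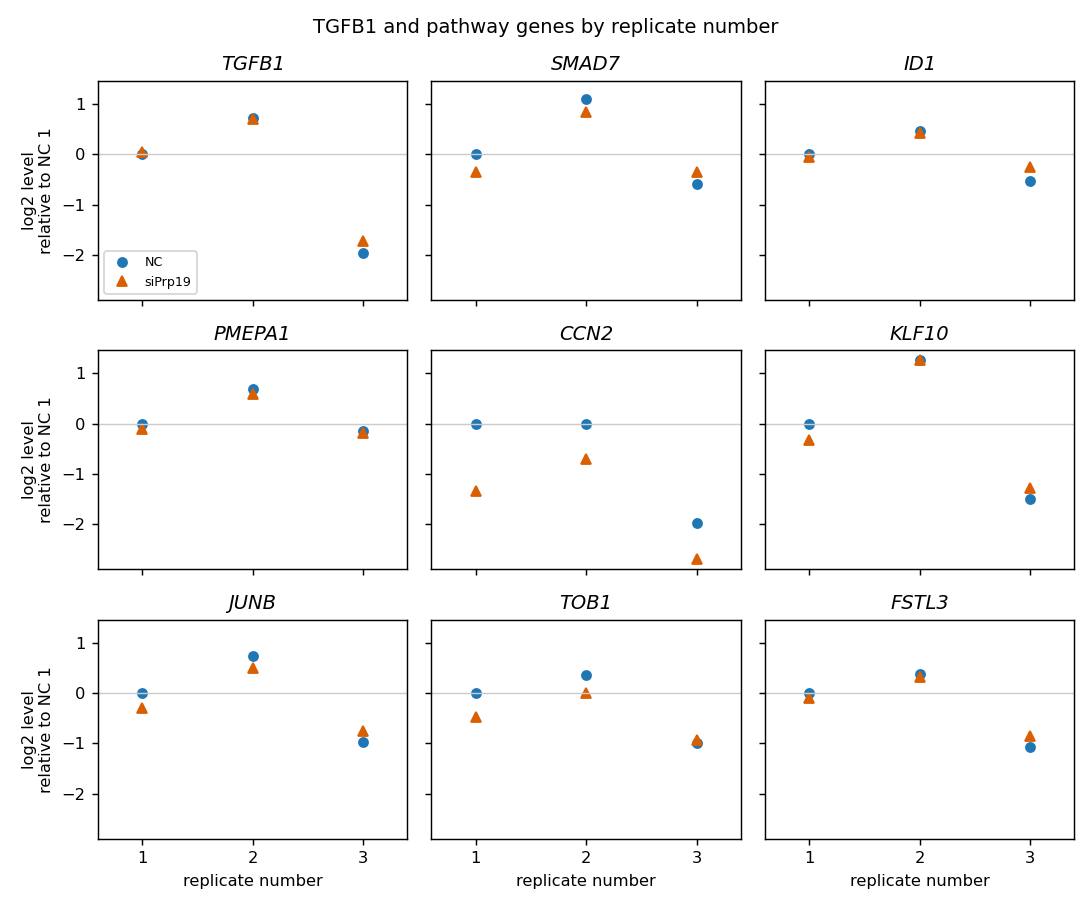
log2(FPKM + 0.1) relative to NC replicate 1 (y axis) by replicate number (x axis) for TGFB1, SMAD7, ID1 and 6 other pathway genes, with circles for NC and triangles for siPrp19. The 9 genes shown are all ones with replicate 2 highest and replicate 3 lowest by mean, an order that 26.2% of all tested genes had. Pathway genes with other orders, such as GDF15 and SMAD6, are not shown. TGFB1 spans 2.56 between replicates 2 and 3.

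The receptors and SMADs moved less between replicate numbers than the ligands and targets. Their median ranges were 0.45 and 0.18, against 0.46 over all tested genes (log2), so only the SMADs lay well below the general level. SMAD4 had a range of 0.52 and SMAD1, a BMP receptor SMAD, of 0.43, and these 2 were the SMADs that passed. ACVRL1 and ACVR1B, type I receptors, had ranges of 0.69 and 0.63, and RGMB, a BMP co-receptor, of 0.56. TGFBR2, the type II TGF-beta receptor, had a range of 0.52 that did not pass (limma adjusted p = 0.146). Of the partners of ID proteins, HAND2, a sympathoadrenal bHLH factor, was abundant, with 346 to 350.0 FPKM in NC replicates 1 and 2 and 274 in NC replicate 3. NEUROD1 had a range of 0.99, and MYOD1, the muscle factor, had the largest range of the lists at 3.73, with 1.76 to 2.54 FPKM in replicates 1 and 2 of both groups and 0.084 and 0.067 FPKM in replicate 3 of NC and siPrp19.

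For siPrp19 against NC, 0 of the 76 pathway genes passed an FDR of 0.05 by limma on FPKM with or without the replicate term, as for all tested genes, and their median log2 fold change was -0.07. At an unadjusted p under 0.05, 4 of the 76 were called without the term, where the share over all tested genes was 1.56%. With the term 20 were lower and 4 higher, where 8.77% of all tested genes were lower and 6.89% higher. The lists were chosen with earlier results of these data known, so counts from them are not an independent test. In limma-voom on recovered reads with the replicate term, an FDR of 0.05 was passed by 17 of the 76 in the lower and 2 in the higher direction, where 4.39% of all genes were lower and 2.62% higher. Of 18 targets 6 were lower and 1 higher, of 7 extracellular inhibitors 5 were lower, of 13 intracellular inhibitors 2 were lower, of 10 partners 2 were lower, of 12 receptors 1 was lower, of 6 SMADs 1 was lower and of 10 ligands 1 was higher.

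The targets that fell in that test included CCN2 (log2 fold change -0.91) and CDKN1A, a cell-cycle inhibitor (-0.56), each lower in 3 of 3 pairs. Both had groups that overlapped, with replicate-number ranges of 1.98 and 1.17. DLX3, a BMP-responsive homeobox gene with a log2 fold change of 0.56, did not pass (limma-voom adjusted p = 0.077). Of the extracellular inhibitors, SOST (-0.97), TWSG1 (-0.29), FSTL1 (-0.25) and GREM1 (-0.21), which bind BMPs or related ligands outside the cell, were lower in 3 of 3 pairs. GREM1, the most abundant of them, was at 39.1, 48.5 and 50.9 FPKM with NC and at 31.9, 43.3 and 44.8 FPKM with siPrp19. SOST was near the lower limit of testing, at 1.67, 1.48 and 2.40 FPKM with NC and 0.364, 0.983 and 1.75 FPKM with siPrp19.

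Of the receptors and SMADs, BMPR2, the type II BMP receptor, was at 12.9, 14.8 and 14.0 FPKM with NC and at 9.97, 12.6 and 10.8 FPKM with siPrp19, and these groups did not overlap (log2 fold change -0.32, limma-voom adjusted p = 0.00038). SMAD5, a BMP receptor SMAD, was lower by the same test (-0.23), again with groups that did not overlap, while SMAD4 (-0.20) and SMAD3 (-0.08) did not pass. TOB2 (-0.38) and TOB1 (-0.26) were the intracellular inhibitors that fell. Among the partners of ID proteins TCF4 (-0.32) fell, TCF12 (-0.14) and TCF3 (0.17) did not pass, and GDF11, a ligand, rose (0.21).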

How the data were processed

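Libraries were 3 NC and 3 siPrp19 samples of SK-N-BE(2) cells, grouped by treatment label. Per sample the study states biological replicates. The authors deposited 1 table of FPKM per sample for 58302 Ensembl genes. The submitters' processing notes name HISAT2 2.0.5, featureCounts 1.5.0-p3 and hg38, without their roles. For 58039 genes the exon length of GENCODE 29 was known, and FPKM times length gave whole reads (within 0.02 reads) in all 6 libraries for 97.4% of them and for 96.0% of those not at 0 throughout.

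Values were analysed as log2(FPKM + 0.1) for genes that averaged 1 FPKM or more in limma 3.58.1 (lmFit and eBayes with trend, R 4.3.3), and p-values were adjusted by Benjamini-Hochberg over all tested genes. A fold change is on this scale and understates that of low genes. The main design had no replicate term, after the study's methods. A second fit added the replicate number, whose F test compared the numbers. Deviations of same-numbered libraries from their group means correlated across genes with r = 0.381 to 0.639 (mean 0.529), so the numbers were taken to pair the libraries. limma-voom was run on recovered reads, rounded to whole numbers, for all tested genes of known exon length. The replicate term and its sum of squares describe differences between numbers, each with 1 library per group. The scripts were tested on simulated data.

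The 8 genes, the pathway and marker lists and the tests were chosen with earlier results of these data known. Named pathway genes were up to 4 per list with the largest change and up to 4 with the largest range, and the 3 nearest profiles per gene. Some genes under this rule are not reported here, but list counts include them. The alternatives were a pseudocount of 1, other filters, TPM, quantile normalization, eBayes without trend and robust, voom, the replicate term and each library or pair left out. The recovered depth was 19058784 to 24181791 reads on genes per library, and counting error was largest for ID4. Python 3.11.15, pandas 2.3.3, numpy 2.4.6, scipy 1.17.1 and matplotlib 3.10.9 were used. Promoter windows were from RefSeq on GRCh38.p14, where 8 of the 8 genes matched by symbol.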

Additional observations from a re-analysis of the deposited data

How the results depend on the processing

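For siPrp19 against NC, the count of genes at an FDR under 0.05 was 0 without the replicate block and with it, 1 with eBayes without trend and robust, 124 with the block and a minimum mean of 5 FPKM, and 1012 with the block and voom. Leaving out each library or pair gave 0 to 0. At an unadjusted p under 0.05 the count of 225 became 971 with no filter, 102 with the minimum of 5 FPKM, 2265 with the block, 1621 with the block and that minimum, and 2969 with the block and voom. It was 138 to 320 with each library left out, lowest without siPrp19 replicate 1, and 1312, 1753 and 2142 with the block and pair 1, 2 or 3 left out. For the replicate number, 7175 genes became 4214 with no filter and 4123 to 5563 with each library left out, lowest without siPrp19 replicate 2 and, at 4395, without NC replicate 2. None of the 8 genes passed an FDR of 0.05 for siPrp19 in any of these fits. At an unadjusted p under 0.05, 0 of them were called without the block, 0 with it, 3 with the block and voom, 1 with the block and the minimum of 5 FPKM, and 2 with the block and pair 3 left out. Without the block, their log2 fold changes turned sign when a library was left out, which leaves the replicate numbers unequal between the groups. The ranges were -0.19 to 0.30 for ID1, -0.46 to 0.15 for ID2, -0.069 to 0.40 for ID3 and -0.33 to 0.18 for ID4. They were -0.27 to 0.25 for SMAD6, -0.53 to 0.33 for SMAD7, -0.22 to 0.051 for BAMBI and -0.48 to 0.0078 for SKIL. With the block, leaving out pair 3 turned ID1 to -0.044, ID4 to 0.092 and SMAD6 to -0.076, and leaving out pair 2 turned BAMBI to 0.016. With the block and any pair left out, ID2 (-0.31 to -0.050), ID3 (0.031 to 0.22), SMAD7 (-0.31 to -0.015) and SKIL (-0.31 to -0.092) kept their sign. Between replicate numbers, ID2 replicate 3 minus 1 was -0.044 with TPM and -0.18 to 0.25 with libraries left out, and BAMBI replicate 3 minus 2 ran from -0.032 to 0.27. The cause was not tested. ID4 was not tested at the minimum of 5 FPKM. With 1 library per group and number, the siPrp19 difference within a number has no replicate.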
